A study of Mus musculus with 20 samples.

Results

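Glycolysis in the liver runs on isozymes, enzymes that catalyse the same step but are encoded by different genes. The 8 genes described here were Hk1, Hk2 and Hk3 (hexokinases), Pklr and Pkm (pyruvate kinases), Aldoa (aldolase) and Ldha and Ldhb (lactate dehydrogenases), chosen by gene symbol as the hepatic and the fetal or ubiquitous forms of these steps, out of 50559 genes in the count tables. All 8 had at least 1 CPM (counts relative to library size, here on library totals) in at least 5 libraries and were among the 14333 genes tested. CPM values given below are TMM scaled.

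RNA was sequenced from 20 libraries, 5 each of Aldafermin+MYC, FGF19+MYC and sgTrp53+MYC tumors and of livers, all from C57BL/6J wild type female mice fasted for 5 hours. The tumors arose after hydrodynamic injection of plasmids into the tail vein at 6 to 8 weeks of age, which delivers DNA mainly to hepatocytes, together with the Sleeping Beauty transposase SB100X. MYC, expressed from the EF1a promoter, was common to the 3 tumor groups. It was combined with human FGF19, an intestinal hormone that acts on liver through FGFR4 and beta-klotho, with Aldafermin, an FGF19 analog changed in its N-terminal region, or with a CRISPR plasmid whose guide targets Trp53 (sgTrp53). The livers carried no MYC plasmid. The labels call them non treated, whereas the methods of the study describe control livers that received a plasmid for red fluorescent protein. The treatment label of the sgTrp53+MYC tumors reads none, and their group was taken from the titles. Each sequenced tumor was, by the study's account, from a different mouse. For the livers the sources used here do not say so in those words, and each has a code number of its own. A tumor sample holds the host's stromal and immune cells as well as transfected hepatocytes.

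Glucose enters glycolysis when a hexokinase phosphorylates it. Aldolase cleaves fructose 1,6-bisphosphate further down, pyruvate kinase makes pyruvate, and lactate dehydrogenase interconverts pyruvate and lactate. The adult hepatocyte is known for the pyruvate kinase encoded by Pklr. Fetal liver and many proliferating cells use the high affinity hexokinase 2, the pyruvate kinase M gene Pkm and aldolase A, and lactate dehydrogenase A reduces pyruvate to lactate. Pkm yields the M1 and M2 enzymes by alternative splicing, which counts per gene cannot separate.

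Gene counts per library totalled 18004977 to 44427184 in the table of Aldafermin+MYC tumors, FGF19+MYC tumors and livers, and 54042455 to 66354724 in sgTrp53+MYC tumors. The sgTrp53+MYC libraries stood alone in a second table, so that table and group cannot be told apart. Reads falling on more than 1 gene made up 11.1% to 14.6% of reads in that table and 3.03% to 6.30% in the other. Trp53 itself ranged from 18.7 to 79.9 CPM in sgTrp53+MYC tumors and from 90.8 to 176 CPM in the other tumors, without overlap (edgeR's quasi-likelihood test with Benjamini-Hochberg adjustment, log2 1.57 higher in the mean of the other tumors, adjusted p = 0.000159). The 14 hepatocyte markers summed to between 216792 and 281188 CPM in livers and between 6886 and 38736 CPM in tumors, and all 14 were called lower in each tumor group. In bulk tissue, fewer cells of a type and less RNA per cell cannot be told apart.

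The upstream sequences of 3 of the genes are shown because the glycolytic genes are textbook targets of factors that bind E-box letters: MYC and its partner MAX recognize CACGTG, hypoxia-inducible factors recognize a core of ACGTG, and the carbohydrate response factor ChREBP recognizes 2 E-box-like motifs separated by 5 bases. They are reference sequences of GRCm39, read 5′ to 3′ on the gene's strand, cut to bases outside annotated exons within the 250 bases before the GENCODE M39 canonical start. Capitals mark the searched letters.
Pklr, chr3:89043629-89043878, plus strand: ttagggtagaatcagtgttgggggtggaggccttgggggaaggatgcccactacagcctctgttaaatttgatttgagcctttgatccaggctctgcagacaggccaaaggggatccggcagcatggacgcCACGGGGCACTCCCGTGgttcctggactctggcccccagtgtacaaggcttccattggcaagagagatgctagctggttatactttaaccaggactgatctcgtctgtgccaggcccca
Hk2, chr6:82751470-82751702, minus strand: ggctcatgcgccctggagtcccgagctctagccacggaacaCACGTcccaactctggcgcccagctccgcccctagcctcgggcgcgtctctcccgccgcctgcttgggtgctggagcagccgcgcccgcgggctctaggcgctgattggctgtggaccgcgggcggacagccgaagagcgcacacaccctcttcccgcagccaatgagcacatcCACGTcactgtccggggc
Ldha, chr7:46495013-46495131, plus strand: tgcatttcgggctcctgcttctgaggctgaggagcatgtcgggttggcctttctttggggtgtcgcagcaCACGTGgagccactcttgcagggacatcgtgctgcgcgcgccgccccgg

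In the Pklr window, neither CACGTG nor ACGTG was found on either strand. It held the letters CACGGGNNNNNCCCGTG, 119 bases before the start, which occurred in 1 of 21729 windows of the same length (0.0046%). That spelling was searched for after the Pklr sequence had been seen. The Hk2 window held no CACGTG and 2 copies of ACGTG, both on the opposite strand and so printed as CACGT, 209 and 35 bases before the start. The Ldha window held 2 copies of CACGTG, 180 and 83 bases before the start, of which the first is printed and the second lies in an annotated exon. CACGTG occurred in 1361 of the 21729 windows (6.26%), and ACGTG on either strand, which includes every CACGTG, in 3689 (17%). The windows of Hk1, Pkm and Ldhb held neither, and those of Hk3 and Aldoa held 1 ACGTG and no CACGTG.

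Whether the tumors carried the hepatic or the fetal isozymes was asked by comparing each tumor group with liver. Pkm, Hk2 and Aldoa were higher and Pklr lower than in liver in each of the 3 tumor groups, and Ldha was higher in Aldafermin+MYC and FGF19+MYC tumors. Hk1 and Hk3 passed the test in none of these comparisons. In Aldafermin+MYC tumors, 4 of the 8 genes were called higher and 2 lower than in liver by edgeR's quasi-likelihood test at an adjusted p under 0.05, where 38.4% of all genes tested were higher and 31.9% lower. FGF19+MYC tumors gave 4 and 2 calls against 36.9% and 32.9% of all genes, and sgTrp53+MYC tumors 3 and 2 against 36.9% and 33%. In 6, 6 and 5 of the 8 genes the tumor and liver values did not overlap, as for 58.8%, 62.5% and 56.2% of all genes. The 8 genes had median log2 fold changes of 0.88, 0.64 and 0.43, and all genes 0.13, 0.062 and 0.071. Hk2, one of the higher genes in each count, reached the filter of 5 libraries only with tumors, in which it was highest. Its place in these counts was thus tied to the filter. The counts and medians do not support a statement on the 8 genes as a set. Ldhb, one of the 2 lower genes in each count, reached the filter without the livers, through Aldafermin+MYC tumors 3, 4 and 5, FGF19+MYC tumor 5 and sgTrp53+MYC tumor 3. The 3 comparisons share the same 5 livers. With library totals in place of TMM scaling, the median of all genes against liver moved to between 0.91 and 0.97, and the share of calls that were higher rose from between 52.8% and 54.6% to between 77.3% and 78.2%; the directions of the genes called in every tumor group held on that scale. The sizes changed: the log2 fold changes against liver became 6.25, 6.08 and 6.46 for Pkm, 5.13, 5.39 and 5.20 for Hk2, 3.10, 2.77 and 2.54 for Aldoa, and -2.04, -1.88 and -2.05 for Pklr, in Aldafermin+MYC, FGF19+MYC and sgTrp53+MYC tumors. Those of Ldha became 2.01, 1.78 and 1.25, and those of Ldhb -1.58, -1.73 and -1.52.

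**Figure D1:**
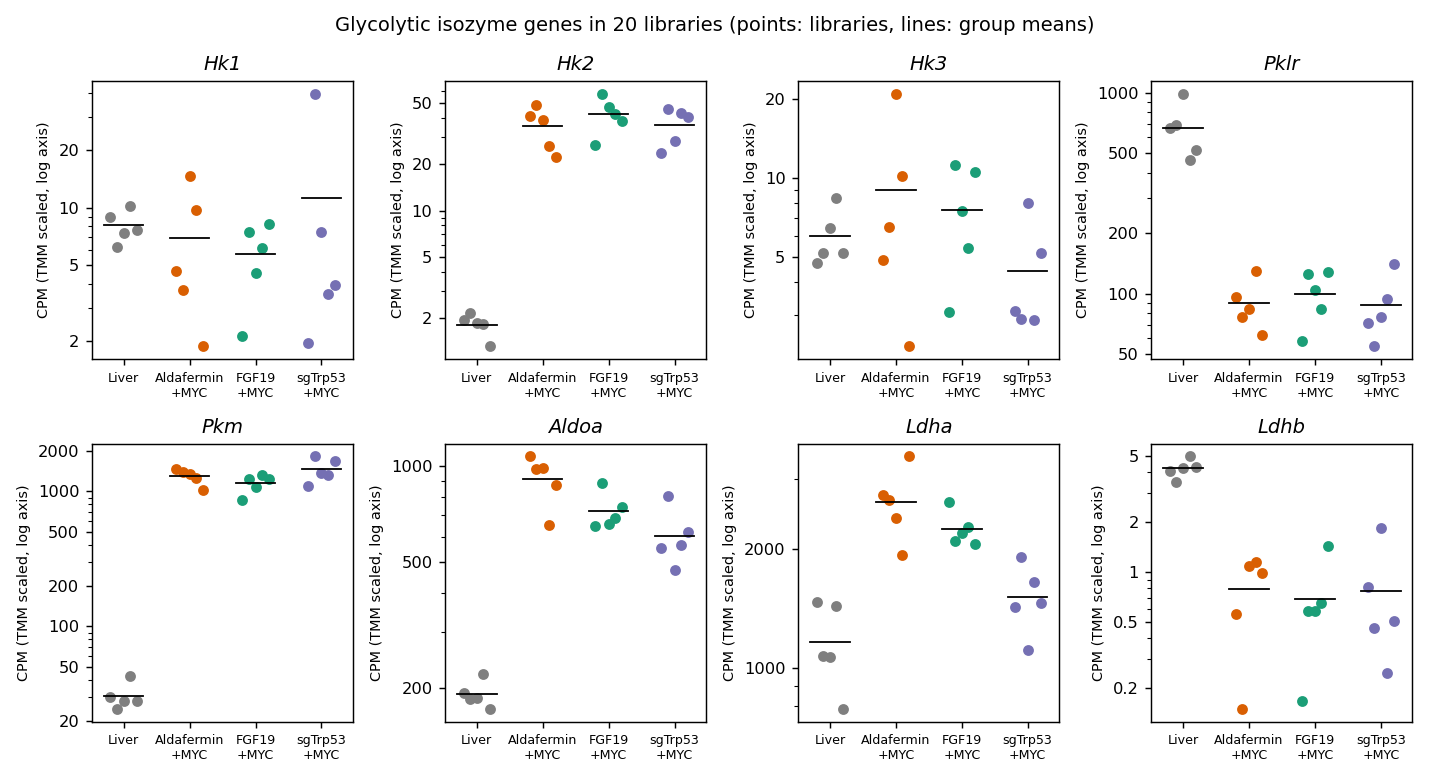
CPM on a log axis of each of the 8 genes in 20 libraries, one point per library and a line at each group's mean, n = 5 per group. Pkm, Hk2 and Aldoa stand above and Pklr and Ldhb below the livers in every tumor, whereas the Hk1 and Hk3 points of tumors and livers overlap.

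**Figure D2:**
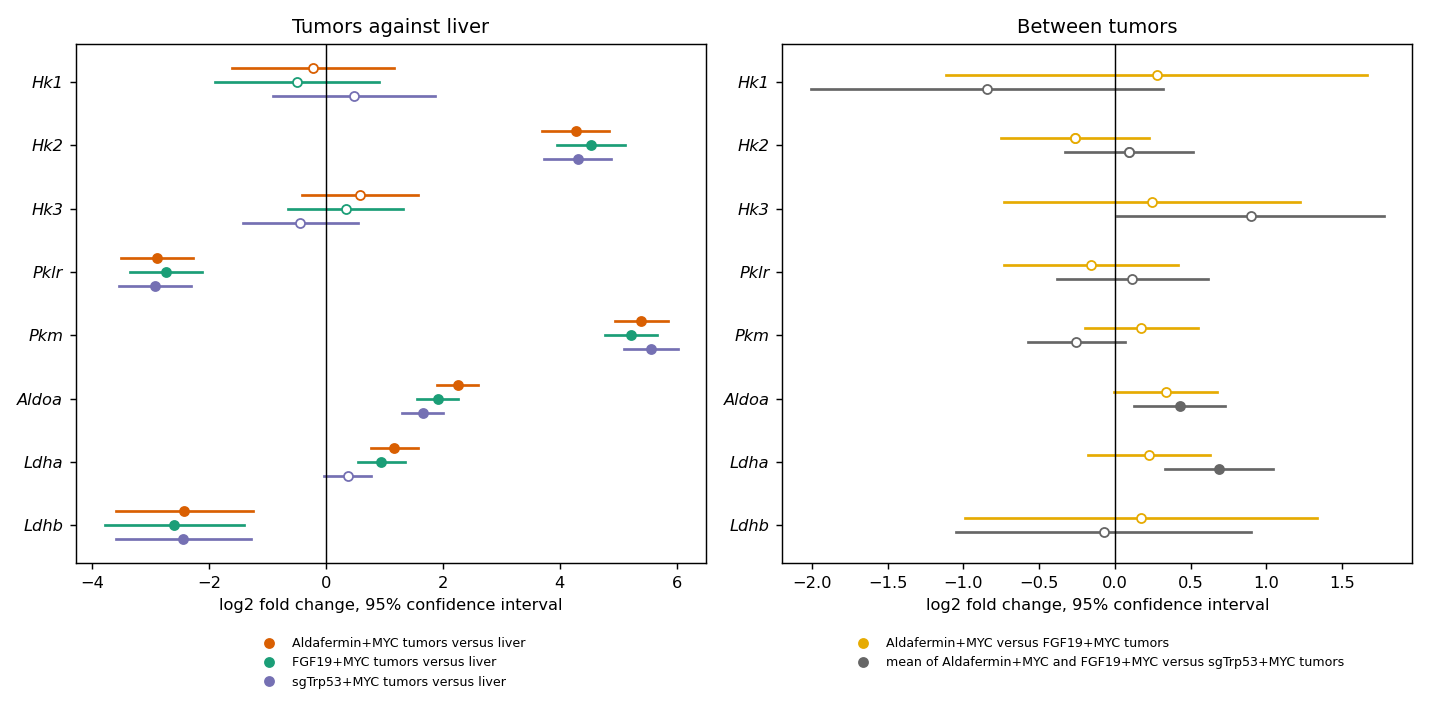
Log2 fold changes with 95% confidence intervals of the 8 genes; filled points passed the test at an adjusted p under 0.05. Against liver, Pkm lies between 5.22 and 5.56 in the 3 tumor groups, and between tumors only Aldoa and Ldha are filled. Hk2 passed the filter only with the tumors.

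At the hexokinase step, Hk2 was the member that differed from liver. Hk2 lies on chromosome 6 (82699740 to 82751469, minus strand, GRCm39) and encodes the high affinity hexokinase of muscle, fat and fetal tissue. It had 1.94, 2.16, 1.86, 1.84 and 1.31 CPM in livers 1 to 5, from 27 to 59 counts per library. On the library totals used for the filter, liver 5 was under 1 CPM, with 33 counts among 39670161. Hk2 therefore reached the filter of 5 libraries only with tumors. In Aldafermin+MYC tumors 1 to 5 it had 40.8, 48.0, 38.7, 26.3 and 22.1 CPM. It had 26.6, 57.3, 46.7, 42.3 and 37.9 CPM in FGF19+MYC tumors 1 to 5. Both sets lie wholly above the livers. In sgTrp53+MYC tumors 1 to 5 Hk2 had 23.5, 45.6, 28.1, 42.8 and 40.4 CPM, within the range of the other tumors. The log2 fold change against liver was 4.27 ± 0.28 (SE) in Aldafermin+MYC tumors, a 19.3-fold higher level (edgeR, adjusted p = 8.49e-11). It was 4.53 ± 0.28 in FGF19+MYC tumors (edgeR, adjusted p = 4.35e-11) and 4.31 ± 0.28 in sgTrp53+MYC tumors (edgeR, adjusted p = 6.91e-11). In the fit without that filter, Hk2 was also called higher than in liver in each tumor group by edgeR's quasi-likelihood test.

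Hk1, on chromosome 10 (62104621 to 62215687, minus strand), encodes the hexokinase found in most tissues, and it was below 15 CPM in 19 of 20 libraries. It had 8.97, 6.20, 7.42, 10.2 and 7.65 CPM in livers 1 to 5 and 4.69, 3.72, 14.6, 9.73 and 1.88 CPM in Aldafermin+MYC tumors 1 to 5. In FGF19+MYC tumors it ranged from 2.12 to 8.22 CPM. Tumors lay on both sides of the livers. In sgTrp53+MYC tumors 1 to 5 Hk1 had 1.96, 39.6, 7.46, 3.54 and 3.96 CPM, with replicate 2 far above the other 4. The same library had 779 CPM summed over 6 cholangiocyte markers (Krt19, Krt7, Epcam, Sox9, Spp1 and Cftr), against 3.85 to 41.3 CPM in the other sgTrp53+MYC tumors, 1.81 to 87.9 CPM in the other tumors and 44.3 to 125 CPM in livers. All 6 markers were detected in each of the 4 groups. The part of these markers in the Hk1 value was not tested. The log2 fold change of Hk1 against liver was -0.22 ± 0.66 (SE) for Aldafermin+MYC, -0.50 ± 0.67 for FGF19+MYC and 0.49 ± 0.66 for sgTrp53+MYC (edgeR, adjusted p = 0.778, 0.519 and 0.527). Without sgTrp53+MYC replicate 2 the last became -0.93, with an adjusted p of 0.111. The direction of Hk1 against liver was not resolved, with 95% intervals that reach from -1.89 to 1.87 over the 3 groups.

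Hk3, on chromosome 13 (55153798 to 55169276, minus strand), encodes a hexokinase known from blood cells. In livers 1 to 5 it had 4.73, 5.17, 6.45, 8.40 and 5.14 CPM. In Aldafermin+MYC tumors 1 to 5 it had 4.86, 6.50, 20.9, 10.2 and 2.27 CPM, replicate 3 being the highest of all 20 libraries. It ranged from 3.07 to 11.2 CPM in FGF19+MYC tumors and from 2.87 to 8.04 CPM in sgTrp53+MYC tumors. Tumors and livers overlapped, and the log2 fold changes against liver were 0.58 ± 0.47 (SE), 0.34 ± 0.47 and -0.44 ± 0.47 (edgeR, adjusted p = 0.279, 0.538 and 0.419). With library totals in place of TMM scaling, Hk3 was called higher than liver in Aldafermin+MYC (1.47, adjusted p = 0.0142) and FGF19+MYC tumors (1.21, adjusted p = 0.0403). Aldafermin+MYC replicate 3 also had the highest sum of 12 macrophage markers, 868 CPM, where the other tumors had 172 to 479 CPM and livers 473 to 733 CPM. The 12 markers were split: 3 were called higher and 6 lower in Aldafermin+MYC tumors than in liver, where 38.4% and 31.9% of all genes were. Among the 12, Clec4f had 1.89 CPM in replicate 3 and 136 to 189 CPM in livers. The same library had the highest sum of 10 stellate cell and fibroblast markers, 2272 CPM against 182 to 841 CPM elsewhere. All markers of both lists were detected in every group, and their part in the Hk3 value was not tested. Without that library Hk3 was -0.0055 against liver in Aldafermin+MYC tumors (adjusted p = 0.992).

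**Figure D3:**
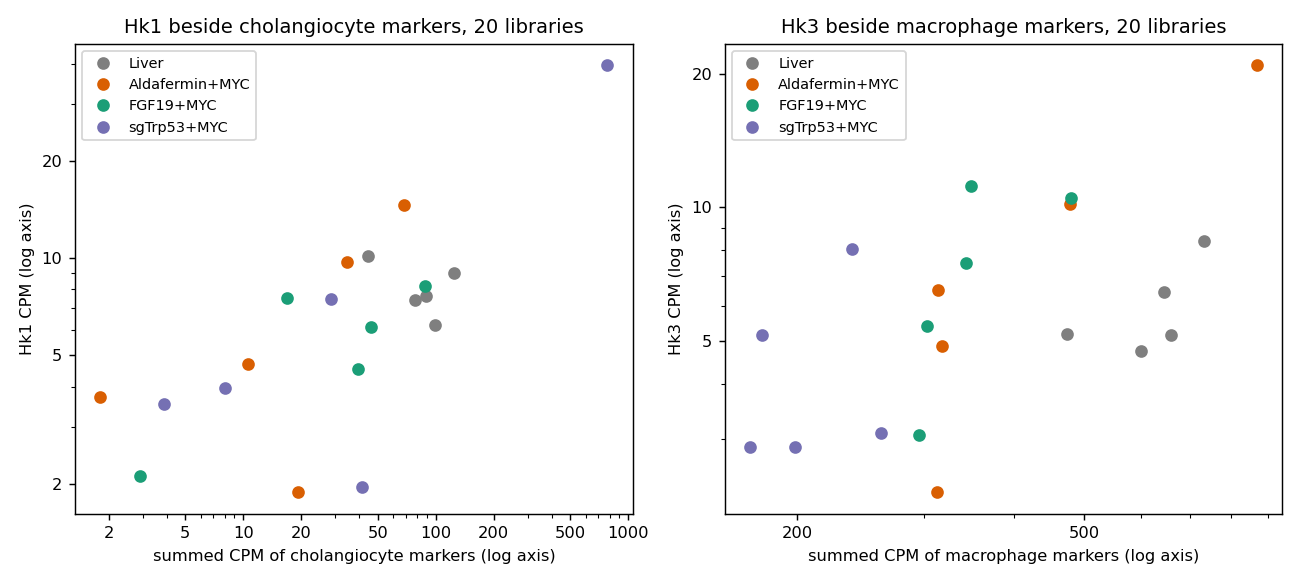
Hk1 against the summed CPM of 6 cholangiocyte markers, left, and Hk3 against that of 12 macrophage markers, right, on log axes, one point per library and n = 5 per group. sgTrp53+MYC replicate 2 is at the upper right of the Hk1 plot with 39.6 and 779 CPM, and Aldafermin+MYC replicate 3 at the upper right of the Hk3 plot with 20.9 and 868 CPM.

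Levels of different genes were compared as CPM per kilobase of canonical transcript. On that scale Hk2 had 0.234 ± 0.0400 CPM per kilobase (SD, n = 5) in livers, below Hk1 at 1.89 ± 0.357 and Hk3 at 1.86 ± 0.466. In tumors it had 4.51 ± 1.37 with Aldafermin, 5.41 ± 1.45 with FGF19 and 4.63 ± 1.24 with sgTrp53. The ratio of Hk2 to Hk1 per kilobase was 0.0955 to 0.193 in livers, 1.45 to 7.06 in Aldafermin+MYC tumors, 2.52 to 6.81 in FGF19+MYC tumors and 0.633 to 6.63 in sgTrp53+MYC tumors, so that Hk1 was above Hk2 in every liver and in 1 tumor, sgTrp53+MYC replicate 2. These levels and ratios are a description and were not tested between groups. Hkdc1, a gene with hexokinase domains next to Hk1, falls outside the naming rule and was chosen after its values were seen. It had 14.2 ± 4.56 CPM per kilobase in Aldafermin+MYC and 11.8 ± 3.15 in FGF19+MYC tumors, above Hk2 in both means, and 1.42 ± 2.27 in sgTrp53+MYC tumors. As CPM, Hkdc1 had 22.0 to 66.4 CPM in those 10 tumors, 0.273 to 1.00 CPM in livers, 19.3 CPM in sgTrp53+MYC replicate 4 and 0.774 to 2.10 CPM in the other 4 sgTrp53+MYC tumors.

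At the aldolase step, Aldoa was higher than in liver in all 15 tumors. Aldoa, on chromosome 7 (126393822 to 126399923, minus strand), encodes the aldolase of muscle and fetal tissue. In livers 1 to 5 it had 193, 185, 186, 222 and 172 CPM. In Aldafermin+MYC tumors 1 to 5 it had 1074, 983, 990, 651 and 870 CPM, and in FGF19+MYC tumors 650, 883, 656, 687 and 743 CPM. The sgTrp53+MYC tumors, with 554, 808, 472, 564 and 623 CPM, had the lowest mean of the 3 tumor groups and also lay wholly above the livers. Aldoa was higher than in liver by a log2 fold change of 2.25 ± 0.17 (SE), 1.92 ± 0.17 and 1.66 ± 0.17 in the 3 groups, or 4.77-, 3.78- and 3.15-fold (edgeR, adjusted p = 7.41e-10, 5.8e-09 and 4e-08).

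At the pyruvate kinase step, Pkm was higher and Pklr lower than in liver in all 15 tumors. Pkm, on chromosome 9 (59563364 to 59586663, plus strand), had 30.2, 24.4, 28.2, 42.7 and 28.2 CPM in livers 1 to 5. In Aldafermin+MYC tumors 1 to 5 it had 1452, 1395, 1350, 1258 and 1017 CPM. In FGF19+MYC tumors 1 to 5 it had 865, 1240, 1078, 1321 and 1225 CPM. The lowest of these tumors was far above the highest liver. The sgTrp53+MYC tumors, with 1092, 1815, 1362, 1330 and 1669 CPM, overlapped the other tumors. Pkm was 42.1-fold higher than liver in Aldafermin+MYC tumors, with a log2 fold change of 5.40 ± 0.22 (SE) (edgeR, adjusted p = 2.1e-13). The values were 37.3-fold and 5.22 ± 0.21 in FGF19+MYC tumors (edgeR, adjusted p = 2.33e-13) and 47.3-fold and 5.56 ± 0.22 in sgTrp53+MYC tumors (edgeR, adjusted p = 1.37e-13).

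Pklr, on chromosome 3 (89043449 to 89054619, plus strand), encodes the pyruvate kinase of liver and red blood cells. It had 670, 689, 991, 464 and 522 CPM in livers 1 to 5 and 96.4, 76.4, 83.8, 131 and 62.6 CPM in Aldafermin+MYC tumors 1 to 5. In FGF19+MYC tumors it had 58.3, 125, 104, 84.4 and 129 CPM, and in sgTrp53+MYC tumors 71.5, 54.8, 76.4, 94.3 and 141 CPM. The 3 tumor groups overlapped and all lay below the livers. Pklr was 7.42-fold lower than liver in Aldafermin+MYC tumors, with a log2 fold change of -2.89 ± 0.29 (SE) (edgeR, adjusted p = 5.01e-08). The values were 6.66-fold and -2.73 ± 0.29 in FGF19+MYC tumors (edgeR, adjusted p = 9.87e-08) and 7.61-fold and -2.93 ± 0.29 in sgTrp53+MYC tumors (edgeR, adjusted p = 4.1e-08). Summed over 10 erythroid markers, livers had 166 to 362 CPM, Aldafermin+MYC replicate 5 had 661 CPM and the other 14 tumors had 19.9 to 144 CPM, below every liver. Of 7 such markers tested, 2, 5 and 6 were lower and none higher than in liver in Aldafermin+MYC, FGF19+MYC and sgTrp53+MYC tumors. Of all genes, 31.9%, 32.9% and 33% were lower and 38.4%, 36.9% and 36.9% higher in those comparisons. The part of the erythroid markers in the Pklr values was not tested.

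Per kilobase, Pklr made up 93.4% ± 2.96 (SD, n = 5) of the step in livers and Pkm 6.60% ± 2.96. In tumors the order was inverted, with Pkm at 95.3% ± 1.25 in Aldafermin+MYC, 94.2% ± 1.25 in FGF19+MYC and 95.8% ± 1.34 in sgTrp53+MYC tumors. The lowest Pkm share in a tumor was 93.0% and the highest in a liver 11.4%. On these canonical lengths the summed level of the step was above liver in tumors, with 207 ± 58.2 CPM per kilobase in livers and 555 ± 72.4, 497 ± 79.1 and 619 ± 119 in tumors. That direction depended on the length used. Pkm has 13417 annotated exon bases, against 2448 in its canonical transcript. Per kilobase of all exon bases, Pkm averaged 96.5, 85.4 and 108 in tumors and Pklr 23.9, 26.6 and 23.3. Livers averaged 2.29 and 177, so the summed level was then below liver in tumors. Pkm still exceeded Pklr in tumors, with a smaller share. These levels are a description and were not tested between groups. In GENCODE M39, 32.9% of Pklr exon bases overlap exons of the opposite strand, among them those of Hcn3, which had at most 7.29 CPM in any library, and 23.5% of Pkm exon bases overlap another gene on the same strand.

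At the lactate dehydrogenase step, Ldha dominated liver and tumor alike. Ldha, on chromosome 7 (46490899 to 46505061, plus strand), encodes the subunit that favours lactate production. In livers 1 to 5 it had 1463, 1071, 1067, 1435 and 786 CPM. In Aldafermin+MYC tumors 1 to 5 it had 2734, 2659, 2384, 1927 and 3418 CPM, and in FGF19+MYC tumors 2626, 2092, 2192, 2262 and 2048 CPM, both sets wholly above the livers. In sgTrp53+MYC tumors 1 to 5 it had 1427, 1898, 1111, 1648 and 1456 CPM, which overlapped the livers. Ldha was 2.25-fold higher than liver in Aldafermin+MYC tumors (log2 1.17 ± 0.19 SE; edgeR, adjusted p = 2.57e-05) and 1.93-fold higher in FGF19+MYC tumors (log2 0.95 ± 0.19; edgeR, adjusted p = 0.000242). In sgTrp53+MYC tumors the log2 fold change was 0.37 ± 0.19, with an interval from -0.028 to 0.77 (edgeR, adjusted p = 0.0897). That value passed the threshold without Aldafermin+MYC replicate 5 (0.49, adjusted p = 0.0265) or without sgTrp53+MYC replicate 3 (0.47, adjusted p = 0.0416), and was 1.25 with library totals in place of TMM scaling.

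Ldhb, on chromosome 6 (142435672 to 142454586, minus strand), encodes the heart type subunit and was, in CPM, the lowest of the 8 genes in each tumor group but not in livers. It had 4.09, 3.48, 4.24, 4.99 and 4.30 CPM in livers 1 to 5, from 57 to 108 counts. It ranged from 0.149 to 1.15 CPM in Aldafermin+MYC tumors, from 0.167 to 1.44 CPM in FGF19+MYC tumors and from 0.245 to 1.85 CPM in sgTrp53+MYC tumors, from 3 to 160 counts per library. All 15 tumors lay below all 5 livers. Its fitted log2 fold changes against liver were -2.43 ± 0.56, -2.60 ± 0.57 and -2.44 ± 0.55 (SE). Ldhb was called lower in all 3 groups by edgeR's quasi-likelihood test at an adjusted p under 0.05, also in the fit without the filter. The sizes of these changes rest on low tumor counts of Ldhb. Per kilobase it made up 0.392% ± 0.106 (SD, n = 5) of the step in livers and 0.0333% ± 0.0221, 0.0332% ± 0.0243 and 0.0615% ± 0.0639 in tumors, so that Ldha held at least 99.4% in every library. The summed level of the step was 736 ± 179 CPM per kilobase in livers and 1653 ± 343, 1414 ± 144 and 950 ± 183 in tumors.

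**Figure D4:**
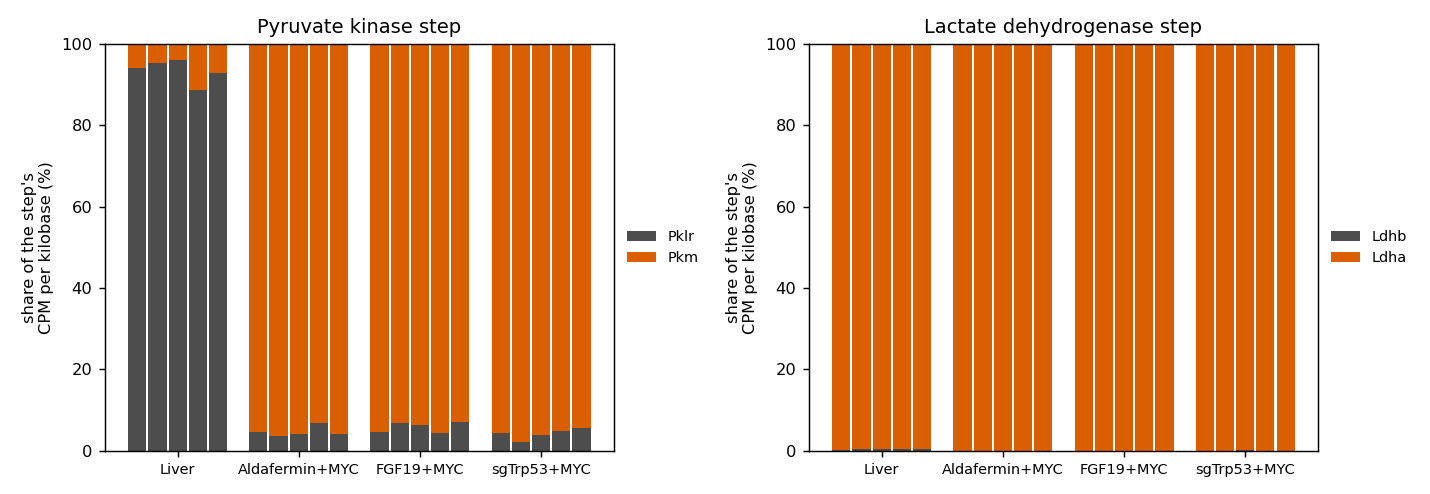
Share in percent of each isozyme in the summed CPM per kilobase of canonical transcript of the pyruvate kinase and the lactate dehydrogenase step, one bar per library in order of replicate number, 5 bars per group. Pklr holds 93.4% on average in livers and Pkm at least 93.0% in every tumor, while Ldha holds at least 99.4% in every library.

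Aldafermin and FGF19, structurally related proteins delivered as plasmids, were compared directly in the tumors they formed with MYC; the hormone levels reached were not analysed here. None of the 8 genes was called different between Aldafermin+MYC and FGF19+MYC tumors, nor was any of all 14333 genes (0%) by edgeR's quasi-likelihood test, with 1048 at an unadjusted p under 0.05. The log2 difference, Aldafermin+MYC minus FGF19+MYC, was 0.34 with a 95% interval from -0.0034 to 0.67 for Aldoa (edgeR, adjusted p = 0.688). It was 0.18 (-0.20 to 0.55) for Pkm, 0.23 (-0.17 to 0.63) for Ldha, -0.16 (-0.73 to 0.42) for Pklr and -0.26 (-0.75 to 0.23) for Hk2. For Hk1, Hk3 and Ldhb the intervals were wider, from -1.11 to 1.67, from -0.73 to 1.22 and from -0.99 to 1.33. All 8 genes overlapped between the 2 groups, where 1.46% of all genes did not overlap. Differences within these intervals could not be resolved with 5 tumors per group.

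The mean of Aldafermin+MYC and FGF19+MYC tumors was then compared with sgTrp53+MYC tumors. Ldha and Aldoa were higher in the former and none of the 8 genes was lower, where 11.6% of all genes were higher and 12.1% lower. Without the filter on low counts, 33.1% of all calls in this comparison were higher, in place of 48.9%. Ldha had 1927 to 3418 CPM in the 10 tumors with FGF19 or Aldafermin and 1111 to 1898 CPM in the 5 sgTrp53+MYC tumors, without overlap, as for 5.7% of all genes. Its log2 fold change was 0.69 ± 0.17 (SE), or 1.61-fold (edgeR, adjusted p = 0.00715). In GENCODE M39, 13.8% of its exon bases overlap exons on the opposite strand, and the part of the higher share of reads on more than 1 gene in the sgTrp53+MYC table was not tested. Over the 13794 tested genes with an annotation, the median difference in this comparison was 0.013 for genes without such overlap, -0.058 for up to 20% of exon bases and 0.022 above that.

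Aldoa had 650 to 1074 CPM in the 10 tumors and 472 to 808 CPM in sgTrp53+MYC tumors, with overlap. Its log2 fold change was 0.43 ± 0.14 (SE), or 1.35-fold (edgeR, adjusted p = 0.0356). That call was lost when any of 9 libraries was left out (Aldafermin+MYC replicates 1, 2, 3 and 5, FGF19+MYC replicate 2 and sgTrp53+MYC replicates 1, 3, 4 and 5), with adjusted p up to 0.109. With offsets for GC content and length it was 0.18, with an adjusted p of 0.347. In GENCODE M39, 43.1% of Aldoa exon bases overlap another gene on the same strand, and the part of reads on more than 1 gene was not tested. The other members were not called: Pkm was at -0.26 (interval -0.58 to 0.065), Pklr at 0.12 (-0.38 to 0.61) and Hk2 at 0.093 (-0.33 to 0.52). Pkm was called lower under the GC content and length offsets only (-0.45, adjusted p = 0.018). Hk3 was at 0.90 (0.017 to 1.78, adjusted p = 0.13), beside 6 of 12 macrophage markers called higher and none lower in the same comparison, whose part was not tested. Hk1 was at -0.84 (-2.01 to 0.32) and at 0.57 (adjusted p = 0.396) without sgTrp53+MYC replicate 2. Ldhb was at -0.074 (-1.05 to 0.90).

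The other 36 glycolytic genes, a list of isozymes, regulators and transporters, held calls in both directions, at shares near those of all genes. Of them 34 were tested, Pgam2 and Eno2 being too low. Against liver, 14 were higher and 12 lower in Aldafermin+MYC tumors, 11 and 13 in FGF19+MYC tumors and 15 and 11 in sgTrp53+MYC tumors, where 38.4% and 31.9%, 36.9% and 32.9%, and 36.9% and 33% of all genes were called. Their median log2 fold change was 0.54, 0.30 and 0.41, beside the medians over all genes given above. With library totals in place of TMM scaling the counts were 21 and 10, 20 and 10, and 21 and 10. Hkdc1 and Slc16a3, among the higher genes in each count, were under 1 CPM on library totals in every liver. They reached the filter only with tumors, as did Pdk3, one of the higher genes in sgTrp53+MYC tumors. The place of these genes in the counts was thus tied to the filter. Without the filter the counts were 16 and 11, 13 and 12, and 16 and 10. Among the genes named by the smallest adjusted p were phosphofructokinase genes, an enolase and a regulator. Pfkp, the platelet type phosphofructokinase, was higher than in liver by 4.06 ± 0.26 (SE), 3.93 ± 0.25 and 4.25 ± 0.26 on the log2 scale, from 3.98 to 6.89 CPM in livers to between 57.4 and 163 CPM in tumors (edgeR, adjusted p = 6e-11, 8.41e-11 and 3.3e-11). Eno1, the ubiquitous enolase, was higher by 1.66 ± 0.15 in Aldafermin+MYC tumors (edgeR, adjusted p = 1.1e-08). Ldhd, the mitochondrial D-lactate dehydrogenase, was lower by 4.36 ± 0.42 in FGF19+MYC tumors (edgeR, adjusted p = 2.25e-08). Pfkfb1, the hepatic regulator of fructose 2,6-bisphosphate, was lower by 1.99 ± 0.18 in sgTrp53+MYC tumors (edgeR, adjusted p = 8.12e-09).

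Between the tumor types, none of the 34 genes was called for Aldafermin+MYC against FGF19+MYC, and 4 were higher and 5 lower in the mean of both than in sgTrp53+MYC tumors, near the 11.6% and 12.1% of all genes. Hkdc1, one of the 4, reached the filter only with the Aldafermin+MYC and FGF19+MYC tumors, in which it was high. Pfkm, the muscle type phosphofructokinase, had 5.64 to 17.3 CPM in the 10 tumors and 12.8 to 35.5 CPM in sgTrp53+MYC tumors, with overlap and a log2 fold change of -1.44 ± 0.25 (SE) (edgeR, adjusted p = 0.00046). In the same libraries, 10 skeletal muscle markers summed to 18.9 to 553 CPM in sgTrp53+MYC tumors and to 2.03 to 12.9 CPM in the other tumors, and their part was not tested; 5 of the 10, Myh1, Myh4, Tnnc2, Myl1 and Pvalb, had 3 counts or fewer in every sgTrp53+MYC library. Ldhd was at -1.64 ± 0.30 (edgeR, adjusted p = 0.00086) and Pfkfb1 at 0.83 ± 0.16 (edgeR, adjusted p = 0.000918).

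The genes whose levels followed each member most closely over the 20 libraries were listed by Pearson correlation of log2 CPM, among genes averaging 10 CPM or more, as a description. The 20 points fall into livers and tumors, so that any gene with a large tumor to liver difference scores high. Hk1 and Hk3 were not called against liver, and each had its top value in 1 library. For Hk1 this was 39.6 CPM, against at most 14.6 CPM elsewhere, and for Hk3 20.9 CPM, against at most 11.2 CPM. Correlations without those libraries are not given here. Pkm was most like Hmga1 (0.996), Asf1b and Chtf18, Hk2 like Dph2 (0.993), Mybbp1a and Rbm38, and Aldoa like Abcb8 (0.983), Krt20 and Tomm40. Pklr was most like Tkfc (0.981), Mia3 and Sfxn5, and Ldhb like Steap4 (0.945), Mug2 and Keg1. Ldha followed Ddost (0.934), a row whose symbol has the date form mars-01, and Rpn1. Hk1 followed Elk3 (0.940), Ccnd2 and Ly6a, and Hk3 followed Rac2 (0.906), Sdc3 and Plekho2. Pseudogene copies named after Aldoa and Ldha held at most 0.00809% and 0.275% of the parent's counts in any library, and the copy of Ldhb at most 4.55%.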

How the data were processed

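RNA from 15 tumors and 5 livers was sequenced as stranded mRNA libraries. Per the labels and the methods, the authors demultiplexed reads with bcl2fastq 2.20.0.422, aligned them with HISAT2 to mm39 and counted them per RefSeq gene with htseq-count. The deposited values are raw counts in 2 tables of 50559 genes, without normalization; the 5 summary lines of each table, 33.7% to 56.2% of a library's reads, were left out of library sizes and tests. Sample columns that could not be mapped numbered 0. Depth was 18004977 to 66354724 counted reads per library; no library was a copy of another (chi-square over its degrees of freedom of at least 13.9 between libraries of a group).

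The counts were fitted with edgeR 4.0.16 (R 4.3.3), keeping the 14333 genes that reached 1 CPM in 5 or more libraries, with TMM scaling, one quasi-likelihood model of 4 groups, and Benjamini-Hochberg adjusted p over all genes tested, threshold 0.05. CPM are TMM scaled, except in the filter, which used library totals. CPM per kilobase use the canonical GENCODE M39 transcript. Ratios and shares were not tested. The members and gene lists were chosen with earlier results of these data known. Named were the 8 members, the 3 listed glycolysis genes with the smallest adjusted p among those called in each comparison, the 3 most alike genes per member, Trp53, marker lists and pseudogene copies; Hkdc1, Hcn3 and the Pklr motif, chosen after their values or sequence were seen, fall outside this rule, and some genes that the rule names are not reported here. Alternatives were DESeq2 1.42.0, edgeR's likelihood ratio test, other scalings and filters, only the compared groups, a replicate block, predicted and pseudogene symbols left out, and each library left out; offsets for GC content and length were added after the data were seen. The test was checked on simulated counts for the mean of Aldafermin+MYC and FGF19+MYC against sgTrp53+MYC tumors: of 14333 genes, 68 of 100 altered by log2 1 and 97 of 100 altered by log2 2 were found, with 8 false calls. Far fewer genes were altered there than the 3399 called in the data. Adjusted p depends on the share of altered genes, so these numbers may not hold for the data.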

Additional observations from a re-analysis of the deposited data

Results flagged for a closer look

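Of 56 group and gene combinations examined (14 genes in 4 groups of 5 libraries), 4 held a library whose gap to its nearest neighbour exceeded Dixon's critical value of 0.71 of the group's range. Chance alone flags about 1 in 20, or 2.8 of 56. Hk1 in sgTrp53+MYC replicate 2 was 39.6 CPM, against 1.96 to 7.46 CPM in the other 4, in the library with the highest cholangiocyte markers (Krt19 at 191 CPM, Krt7 at 80.9 CPM). Hkdc1 in FGF19+MYC replicate 1 was 22.0 CPM, against 44.1 to 48.2 CPM. Hkdc1 in sgTrp53+MYC replicate 4 was 19.3 CPM, against 0.774 to 2.10 CPM. Pfkm in Aldafermin+MYC replicate 1 was 17.3 CPM, against 5.64 to 7.52 CPM.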

How the results depend on the processing

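Of the 8 genes, those called against liver kept direction and call under every alternative and with each library left out, apart from Ldhb with the filter of at least 10 CPM, at which neither it nor Hk1 was tested. For the mean of Aldafermin+MYC and FGF19+MYC against sgTrp53+MYC tumors, 2 members were called, and 1 with library totals, without the filter or with only the compared groups, and 1 to 2 with a library left out. With GC content and length offsets, chosen after the data were seen, 2 were called but Pkm stood in place of Aldoa. Over all genes, Aldafermin+MYC against FGF19+MYC gave 0 calls, 59 by edgeR's likelihood ratio test, 96 by DESeq2, 2 with DESeq2's size factors and 0 to 29 with a library left out, most without Aldafermin+MYC replicate 4; no member was among the calls of these fits.

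Some log2 fold changes that were not called changed sign. Against sgTrp53+MYC tumors, Hk2 was -0.017 without the filter and -0.029 to 0.19 with a library left out, Pklr was -0.024 with the offsets and -0.015 to 0.35 with a library left out, and Ldhb and Hk1 ranged from -0.30 to 0.54 and from -1.12 to 0.57 with a library left out. Hk1 against liver was 0.67 and 0.38 in Aldafermin+MYC and FGF19+MYC tumors with library totals and -0.19 in sgTrp53+MYC tumors with the replicate block. With a library left out it ranged from -0.69 to 0.083 in Aldafermin+MYC and from -0.93 to 0.76 in sgTrp53+MYC tumors. Hk3 against liver was 0.48 in sgTrp53+MYC tumors with library totals and -0.0055 to 0.89 in Aldafermin+MYC tumors with a library left out. Between Aldafermin+MYC and FGF19+MYC tumors, leaving out a library gave -0.19 to 0.50 for Hk1, -0.34 to 0.48 for Hk3 and -0.058 to 0.63 for Ldhb. The cause was not tested.

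Ldha in sgTrp53+MYC tumors against liver was called with library totals (1.25), without the filter (0.66) and with the offsets (0.48). The Aldoa call against sgTrp53+MYC tumors was lost by edgeR with library totals (adjusted p = 0.0574), without the filter (0.191), with only the compared groups (0.0618) and with the offsets (0.347).

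Replicate numbers were not taken as pairs, since tumors of the same number came from different mice and shared no other label: 6 of 30 same-numbered pairs correlated above 0.1 in their deviations from group means (range -0.33 to 0.33), and 1 of 20 libraries correlated best with its own number. With the replicate block the members called stayed at 0, 2, 6, 6 and 5 in number, and all genes called against sgTrp53+MYC tumors went from 3399 to 3120. Low counts limit Ldhb, at 3 to 160 counts per tumor library.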
